A study of Homo sapiens with 16 samples.

Results

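The enzymes that place and remove methyl groups on histone lysines were followed at the transcript level in HCT116 cells, an established epithelial line from a human colorectal carcinoma. The 50 members were taken from the deposited count table by a list of gene names, out of 33937 genes in all. They were 30 methyltransferases and 20 demethylases. The name methyltransferase here includes *EED* and *SUZ12*, subunits of PRC2 without catalytic activity of their own, and *KMT2E*, whose activity is not settled. Every member was found in the table and every member passed the filter on low counts in all 5 comparisons, so none is left out below.

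The cells carried a doxycycline-inducible hairpin against *NAA40*, the acetyltransferase that modifies the N-terminus of histones H2A and H4, or a scrambled control hairpin, and each line was grown for 96 h with doxycycline (dox) at 1 μg/ml or without it. This gave 4 groups of 4 libraries, the scrambled line labelled SCR (−dox) or SCR (+dox) and the hairpin line labelled NAA40-KD (−dox) or NAA40-KD (+dox), each prepared from independent RNA samples of the same engineered lines. With 1 hairpin line and 1 scrambled line analysed here, a comparison between the lines cannot tell an effect of the hairpin from another difference between them. A standing difference drops out of the comparison of labels within a line and of the interaction of line and label. A response to dox peculiar to 1 line, other than through the hairpin, would not drop out.

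Histone lysine methyltransferases transfer a methyl group from S-adenosylmethionine, and most of them act on a preferred residue of histone H3 or H4. H3K4 methylation marks promoters and enhancers, H3K36 and H3K79 methylation mark transcribed genes, and H3K9, H3K27 and H4K20 methylation accompany silenced chromatin. Demethylases reverse these marks, either with FAD (*KDM1A* and *KDM1B*) or with iron and 2-oxoglutarate (the Jumonji enzymes). In dividing cells *EZH2*, *SUV39H1* and *KMT5A* are also known for levels that follow the cell cycle.

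Total counts ran from 11065606 to 13855486 per library. The epithelial markers *EPCAM*, CDH1, *KRT8*, KRT18, KRT19, VIL1, CLDN3 and CLDN4 summed to 5618 to 11926 CPM (read counts scaled to a common library size by TMM) in NAA40-KD (−dox) and to 4059 to 5848 CPM in the other groups, whereas haematopoietic markers summed to at most 0.924 CPM and endothelial markers to at most 2.87 CPM. *COL1A1* alone carried the fibroblast list, at up to 188.9 CPM. The targeted gene did not follow the labels. *NAA40* stood at 11.7 ± 1.75 CPM (SD, n = 4) under the label NAA40-KD (−dox) and at 30.3 ± 1.57 CPM under NAA40-KD (+dox), beside 29.6 ± 3.66 CPM in SCR (−dox) and 27.3 ± 1.18 CPM in SCR (+dox). This is 39.4% of the control level for the −dox label (two-sided exact permutation over samples, p = 0.0286, which 4 against 4 cannot go below) and 111.3% for the +dox label (the same exact permutation p = 0.0286, though in edgeR its adjusted p was 0.281). All groups are therefore called by their labels, and every direction below rests on them. Whether the −dox and +dox labels of the hairpin line were exchanged in the deposit was not tested. Comparisons between the lines labelled +dox are thus not comparisons at a low *NAA40* level. Since the libraries come from independent RNA samples of the same lines, p-values measure the spread between these samples.

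A library that stood apart touched many members. In NAA40-KD (−dox) replicate 4 the log2 CPM of each member was taken against the mean of the other 3 libraries of its group. It followed the GC content of the gene's longest annotated transcript (Spearman's rho = 0.966 over the 50 members, which share this library, and 0.903 over all 14350 genes compared). All 14 members with at least 55% GC were higher in it, with a median of 0.89, and all 19 members under 45% GC were lower, with a median of −0.78. Smaller deviations followed GC content in other libraries too. Among these, rho over the members was 0.796 and −0.680 in SCR (+dox) replicates 4 and 1, and 0.644 in SCR (−dox) replicate 2. Their root mean square deviations over all genes were 0.29, 0.26 and 0.28, beside 0.88 in NAA40-KD (−dox) replicate 4. Another library, SCR (+dox) replicate 3, was low for 39 of the 50 members (median deviation −0.27). Its deviations followed the exon length of the members (rho = −0.477). Values without NAA40-KD (−dox) replicate 4 or SCR (+dox) replicate 3 stand beside the results that they moved most.

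**Figure D1:**
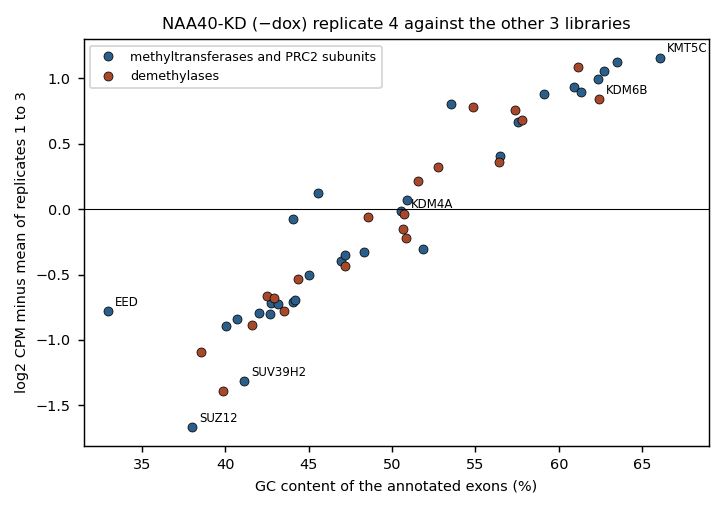
Deviation of NAA40-KD (−dox) replicate 4 from the mean of replicates 1 to 3 of its group, as a log2 CPM difference, against GC content in percent, for the 50 members (blue, methyltransferases and PRC2 subunits; red, demethylases). GC content is that of the longest annotated transcript of each gene, which the axis names annotated exons. The points rise from SUZ12 at the low end to KMT5C at the high end, and all 14 members with at least 55% GC lie above 0.

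Within a group, levels of different genes were compared per kilobase of annotated exon. In SCR (−dox) the highest levels were those of *KDM1A*, the FAD-dependent H3K4 demethylase of the CoREST complex, at 40.3 CPM per kilobase, and of *KDM3B*, an H3K9 demethylase, at 22.5. Just under them came the PRC2 genes *EZH2* and *SUZ12*, at 19.7 and 19.6 CPM per kilobase, while the core subunit *EED* was at 3.06, and the catalytic subunit *EZH2* stood well above its paralogue *EZH1* at 5.09. The lowest levels were those of *KDM8* (0.625), *KDM4D* (1.24) and *SETDB2* (1.68). *KDM8* rested on only 23 to 40 counts per SCR (−dox) library, so small differences in it were not detectable at this depth.

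The comparison of the lines labelled +dox asked how the enzymes differed between NAA40-KD and SCR when both carried the +dox label. Several demethylases were lower and a few methyltransferases were modestly higher. Of the 20 demethylases 6 were lower (*KDM4B*, *KDM4A*, *KDM5B*, *JMJD1C*, *KDM5C* and *KDM2A*) and 1 was higher (*KDM1B*), while of the 30 methyltransferases 3 were higher (*NSD2*, *EHMT2* and *SMYD5*) and 0 were lower. The median log2 fold change was 0.16 for the methyltransferases, with 22 of 30 above 0, and −0.15 for the demethylases, with 13 of 20 below 0, beside −0.00 for all genes tested. These calls are at an adjusted p under 0.05 in the quasi-likelihood test of edgeR (Benjamini-Hochberg over 13869 genes here), as are all calls below. Since 10.9% of all genes tested were higher and 13.7% lower by the same rule, 4 higher and 6 lower members of 50 were near the background in number. None of the 50 had an absolute log2 fold change above 1, a size that 2.15% of all genes reached together with the adjusted p. In bulk samples like these, fewer cells of a kind and less RNA per cell cannot be told apart.

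**Figure D2:**
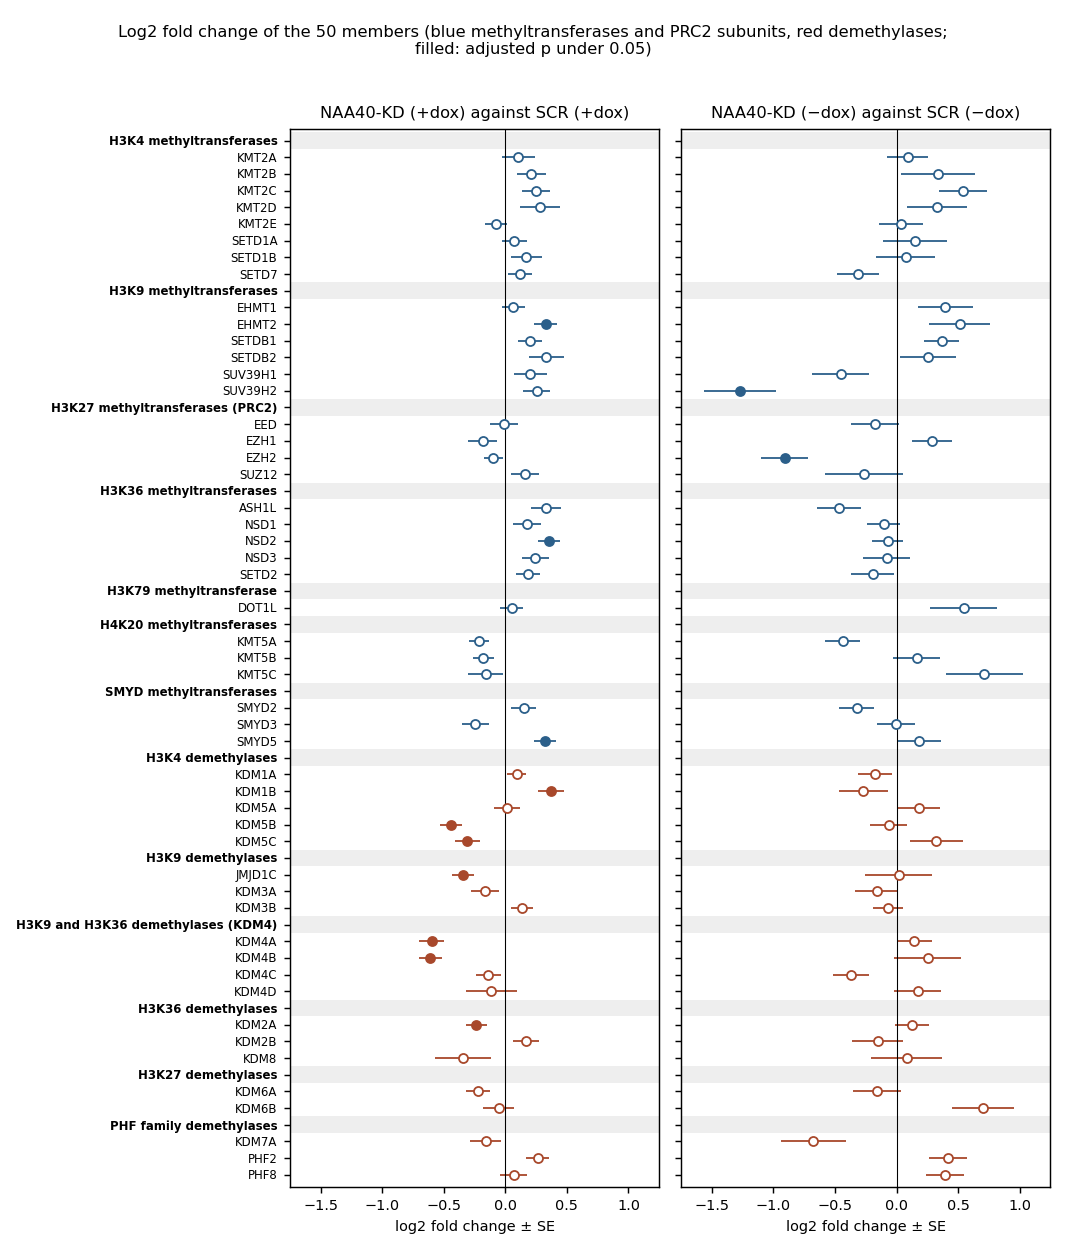
Log2 fold change (x axis, ± SE derived from the F statistic of edgeR) of the 50 members between NAA40-KD and SCR. Libraries labelled +dox are on the left and −dox on the right, with members ordered by the residue that each enzyme acts on. Blue marks methyltransferases and PRC2 subunits, red marks demethylases and filled points mark an adjusted p under 0.05. On the left 6 red points and 0 blue points are filled below 0, and on the right the filled points are SUV39H2 and EZH2, both below 0.

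The KDM4 enzymes, Jumonji demethylases that remove tri- and dimethylation from H3K9 and, *KDM4D* aside, from H3K36, showed the largest differences among the members. *KDM4B* (ENSG00000127663, chr19:4969113-5153595, + strand; gene positions are those of GENCODE on GRCh38) was at 65.6, 63.5, 60.8 and 72.8 CPM in SCR (+dox) replicates 1 to 4 and at 41.9, 42.4, 43.4 and 45.2 CPM in NAA40-KD (+dox). Its highest NAA40-KD (+dox) library lay well below its lowest SCR (+dox) library, with a log2 fold change of −0.61 (standard error 0.09, adjusted p = 0.000125). *KDM4A* (ENSG00000066135, chr1:43650158-43705515, + strand) was at 102, 99.1, 85.4 and 116 CPM in SCR (+dox) and at 68.1, 66.8, 69.2 and 63.3 CPM in NAA40-KD (+dox), again without overlap, a log2 fold change of −0.60 (standard error 0.10, adjusted p = 0.000281). In NAA40-KD (−dox), the group with little *NAA40* transcript, *KDM4A* was at 108, 105, 105 and 104 CPM, within the range of both SCR groups. In the annotation the exon overlaps of *KDM4A* with other genes, added up gene by gene, come to 49.1% of its exonic bases. They are with *AL451062.3* on the same strand and with *KDM4A-AS1* on the opposite strand. Whether counting used strand is not stated, so the counts of *KDM4A* could gain or lose reads through both. Stranded counting would still leave the overlap with *AL451062.3*. For *KDM4B* this overlap is 0. It is 20.3% for *SUV39H1*, 18.9% for *KMT2A*, 14.5% for *KDM8*, 13.4% for *SETDB1* and 11.5% for *DOT1L*, and at most 8.12% for the remaining members. The other 2 members of the family, *KDM4C* at −0.14 and *KDM4D* at −0.11, did not pass the test.

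The promoters of *KDM4A* and *KDM4B*, which were lower together, are shown for the 250 bases before the start site that RefSeq lists (build GRCh38.p14), *KDM4A* at chr1:43649899-43650148 and *KDM4B* at chr19:4968863-4969112, both on the + strand. Capitals mark CCAAT boxes (CCAAT) and GC boxes (GGGCGG) on either strand.
KDM4A: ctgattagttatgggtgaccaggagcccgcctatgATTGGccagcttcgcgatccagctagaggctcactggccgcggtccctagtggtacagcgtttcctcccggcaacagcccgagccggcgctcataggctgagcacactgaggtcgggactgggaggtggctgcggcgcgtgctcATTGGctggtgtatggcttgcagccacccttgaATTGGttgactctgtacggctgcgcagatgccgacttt
KDM4B: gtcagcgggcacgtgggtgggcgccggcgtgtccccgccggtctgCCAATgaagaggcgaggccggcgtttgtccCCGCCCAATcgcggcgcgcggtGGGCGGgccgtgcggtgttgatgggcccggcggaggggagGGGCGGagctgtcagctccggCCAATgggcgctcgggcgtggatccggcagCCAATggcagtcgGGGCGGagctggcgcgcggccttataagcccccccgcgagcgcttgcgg
*KDM4A* held 3 CCAAT boxes and 0 GC boxes, and *KDM4B* held 4 of each, where 1 CCAAT box and 1 GC box share letters. Among all 35116 windows of this length 32% held a CCAAT box and 42.6% a GC box, and of the 68 windows that RefSeq lists for 47 members 32.4% and 75% did. A match is a description of the letters and not of a bound site.

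Among the H3K4 demethylases, the KDM5 enzymes differed in direction from *KDM1B*. *KDM5B* (ENSG00000117139, chr1:202724495-202809470, − strand), which removes H3K4 tri- and dimethylation, was at 134, 129, 111 and 130.4 CPM in SCR (+dox) and 92.5, 99.2, 94.9 and 86.2 CPM in NAA40-KD (+dox), with no overlap and a log2 fold change of −0.44 (standard error 0.09, adjusted p = 0.00157). Its relative *KDM5C* was at 146, 159, 119.6 and 172 CPM in SCR (+dox) and 123, 121, 119 and 121 CPM in NAA40-KD (+dox). These groups overlapped through SCR (+dox) replicate 3, the library that was low for most members, and the log2 fold change of *KDM5C* was −0.31 (standard error 0.10, adjusted p = 0.0342). *KDM5A*, the remaining paralogue, had nearly the same mean in both groups, 56.6 ± 8.98 and 57.4 ± 2.15 CPM (SD, n = 4), a log2 fold change of 0.01 (standard error 0.11, adjusted p = 0.952). *KDM1B*, an FAD-dependent H3K4 demethylase, was instead higher, at 56.7, 50.1, 44.1 and 39.4 CPM in SCR (+dox) and 67.8, 63.2, 59.6 and 56.6 CPM in NAA40-KD (+dox), where the lowest NAA40-KD library lay just under the highest SCR library. Its log2 fold change was 0.37 (standard error 0.11, adjusted p = 0.0171), whereas that of *KDM1A* was 0.09 (standard error 0.08, adjusted p = 0.426).

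Of the H3K9 demethylases *JMJD1C* was lower, at 202, 197, 162 and 172 CPM in SCR (+dox) and 146, 154, 144 and 136 CPM in NAA40-KD (+dox). The groups did not overlap, and its log2 fold change was −0.34 (standard error 0.09, adjusted p = 0.00888), while *KDM3A* and *KDM3B* were at −0.17 and 0.14 and did not pass. *KDM2A*, a CpG-island-binding H3K36 demethylase, was at 118, 121, 107 and 123 CPM in SCR (+dox) and 99.2, 94.8, 103 and 104 CPM in NAA40-KD (+dox), with a log2 fold change of −0.24 (standard error 0.08, adjusted p = 0.0464). The H3K27 demethylases *KDM6A* (−0.22, adjusted p = 0.0941) and *KDM6B* (−0.06, adjusted p = 0.775) did not pass, and neither did the 3 PHF family members, between −0.16 and 0.26 on the log2 scale.

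The methyltransferases that rose act on different residues. *NSD2* (ENSG00000109685, chr4:1871424-1982207, + strand), which dimethylates H3K36, was at 252, 270.0, 217 and 260.4 CPM in SCR (+dox) and 317, 326, 328 and 312 CPM in NAA40-KD (+dox), with no overlap and a log2 fold change of 0.35 (standard error 0.09, adjusted p = 0.00667). *EHMT2*, which mono- and dimethylates H3K9, was at 72.8, 77.7, 72.7 and 87.4 CPM in SCR (+dox) and 95.1, 91.8, 102 and 104 CPM in NAA40-KD (+dox), a log2 fold change of 0.33 (standard error 0.09, adjusted p = 0.0143). Its partner *EHMT1* was at 80.6 ± 7.62 and 84.7 ± 5.13 CPM (SD, n = 4) in the same groups and did not pass (0.06, adjusted p = 0.664). *SMYD5*, of the SET and MYND domain family, was at 42.6, 42.2, 49.0 and 45.6 CPM in SCR (+dox) and 54.9, 53.9, 58.7 and 57.8 CPM in NAA40-KD (+dox), a log2 fold change of 0.32 (standard error 0.09, adjusted p = 0.0149). All 3 of these genes were higher in every NAA40-KD (+dox) library than in any SCR (+dox) library.

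By residue the fold changes of several classes shared a sign without passing the test gene by gene. All 6 H3K9 methyltransferases were between 0.06 and 0.33 (median 0.23) and all 5 H3K36 methyltransferases between 0.18 and 0.35 (median 0.24), with 1 of each past the test. The 8 H3K4 methyltransferases, the KMT2 and SETD1 enzymes with *SETD7*, ran from −0.08 to 0.28 with 7 above 0 and 0 past the test (median 0.15). The value below 0 was that of *KMT2E*. In contrast, all 3 H4K20 methyltransferases had negative values, *KMT5A* at −0.22 (adjusted p = 0.0656), *KMT5B* at −0.18 (adjusted p = 0.143) and *KMT5C* at −0.16 (adjusted p = 0.428). The PRC2 genes ran from −0.18 for *EZH1* to 0.16 for *SUZ12*, and *EZH2* was at 84.6 ± 3.81 CPM in SCR (+dox) and 79.4 ± 0.737 CPM in NAA40-KD (+dox). *DOT1L*, the main H3K79 methyltransferase, was at 0.05 (adjusted p = 0.732). Groups did not overlap for 5 members that were higher and 7 that were lower in NAA40-KD (+dox), beside 13.5% and 13.5% of all genes tested, and 6 of the latter 7 were demethylases.

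The summed levels set the classes apart in the same direction. The ratio of the summed CPM of the 30 methyltransferases to that of the 20 demethylases was 1.72 to 1.82 in the libraries labelled NAA40-KD (+dox), 1.39 to 1.49 in SCR (+dox), 1.46 to 1.55 in SCR (−dox) and 1.39 to 1.52 in those labelled NAA40-KD (−dox). Every NAA40-KD (+dox) library thus lay above every other library. The demethylase sum was 1517 ± 24.9 CPM in NAA40-KD (+dox) and 1647 ± 129 CPM in SCR (+dox), the latter spread by replicate 3, which held 1456 CPM. The methyltransferase sum was 2665 ± 26.4 CPM and 2379 ± 246 CPM, with 2022 CPM in the same replicate. Sums weigh long and highly expressed genes most and are given as a description, without a test.

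**Figure D3:**
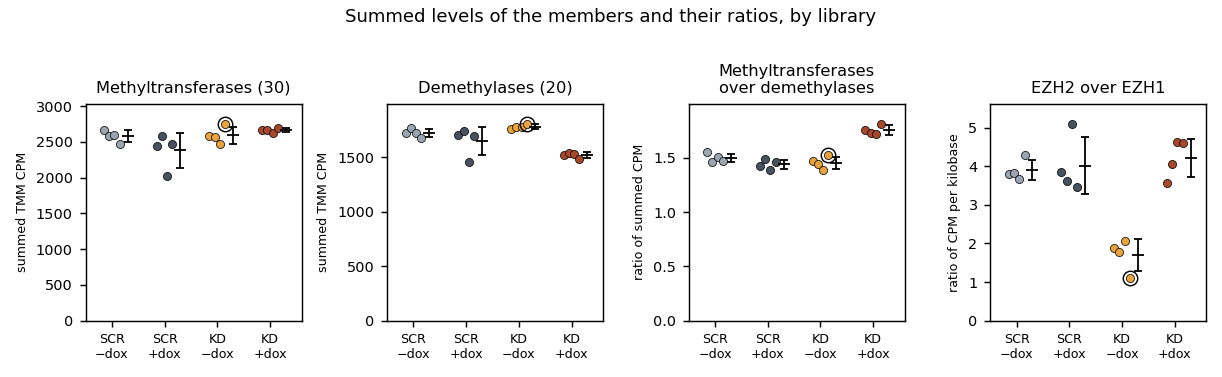
Summed TMM CPM of the 30 methyltransferases and of the 20 demethylases, their ratio, and the ratio of EZH2 to EZH1 in CPM per kilobase, for each library of the 4 groups (points, replicates 1 to 4 from left to right; bars, mean ± SD of 4; the ring marks NAA40-KD (−dox) replicate 4). The methyltransferase to demethylase ratio is 1.72 to 1.82 in NAA40-KD (+dox) and at most 1.55 in every other library, and the EZH2 to EZH1 ratio is at most 2.06 in NAA40-KD (−dox).

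*KDM4B*, *KDM4A*, *KDM5B*, *JMJD1C* and *NSD2* kept their calls when any of the 8 libraries was left out. *KDM2A* lost its call without 7 of them (all but SCR (+dox) replicate 3, adjusted p 0.0632 to 0.158) and *KDM5C* without 6 (all but SCR (+dox) replicates 1 and 3, 0.0740 to 0.0974), *KDM1B* lost it without NAA40-KD (+dox) replicate 1 or 2 (0.0707 and 0.0550), *EHMT2* without NAA40-KD (+dox) replicate 4 (0.0530) and *SMYD5* without NAA40-KD (+dox) replicate 3 (0.0558), all from edgeR. Without SCR (+dox) replicate 3 the median log2 fold change of the methyltransferases was 0.07 in place of 0.16 and that of the demethylases −0.24 in place of −0.15, with 22 of 30 still above 0 and 15 of 20 below 0 and with *KDM6A* also past the test (−0.27, adjusted p = 0.0404), whereas without SCR (+dox) replicate 1 the demethylase median was −0.09. In the fit without SCR (+dox) replicate 3 the median of the H3K4 methyltransferases was 0.03 with 6 of 8 above 0 (*KMT2A* at −0.05). That of the H3K36 methyltransferases was 0.14 with 5 of 5 above 0, and that of the H3K9 methyltransferases 0.24 with 6 of 6 above 0. In a fit to all 16 libraries, which takes in the spread of NAA40-KD (−dox) replicate 4, *KDM4A*, *KDM5B* and *NSD2* remained past the test and *KDM4B* was at −0.61 with an adjusted p of 0.0888.

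**Figure D4:**
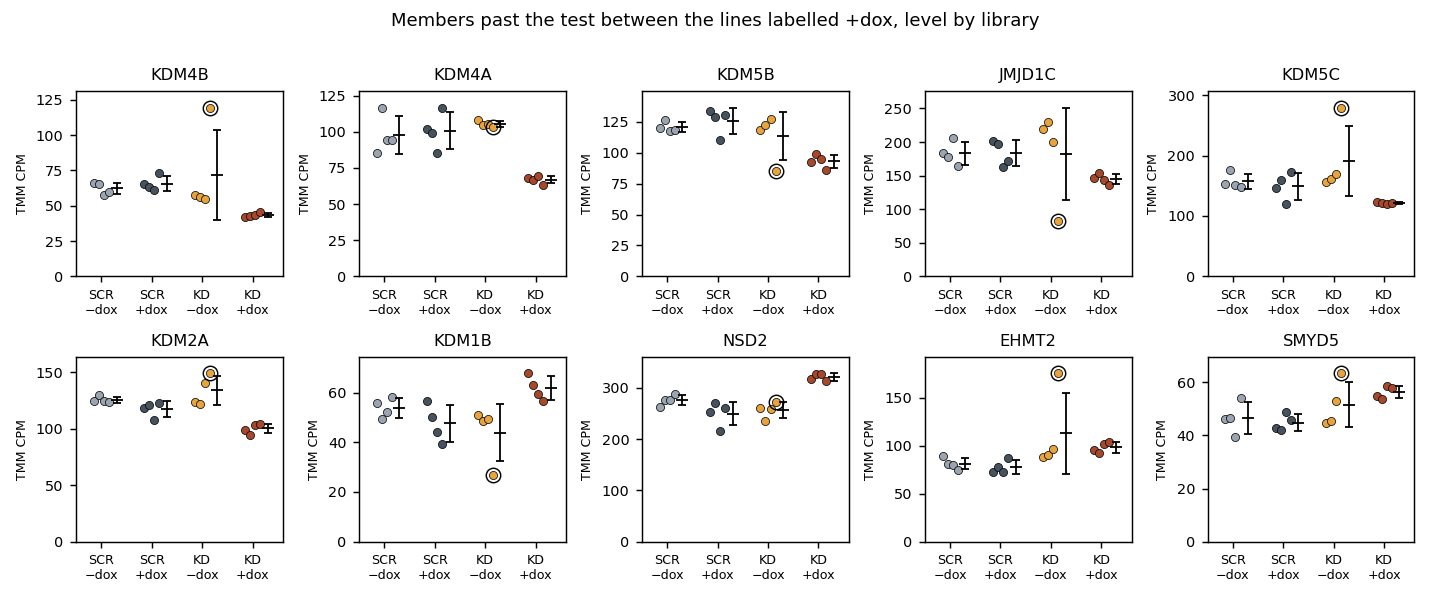
Level in TMM CPM of the 10 members past the test between the lines labelled +dox, for each library of the 4 groups (points, replicates 1 to 4 from left to right; bars, mean ± SD of 4; the ring marks NAA40-KD (−dox) replicate 4; axes start at 0). KDM4B, KDM4A and KDM5B lie lower in all 4 NAA40-KD (+dox) libraries than in any SCR library, and NSD2 lies higher.

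The comparison of the lines labelled −dox set the hairpin line at its low *NAA40* level against SCR (−dox). *SUV39H2*, which trimethylates H3K9 in heterochromatin, and *EZH2*, the catalytic subunit of PRC2 in dividing cells, were lower, and 0 demethylases passed the test. These 2 calls among 50 members stand beside 6.42% of all 13903 genes tested. *SUV39H2* was also the only member with an absolute log2 fold change above 1, which 3.47% of all genes had at the same adjusted p.

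*SUV39H2* (ENSG00000152455, chr10:14878820-14904315, + strand) was at 18.7, 15.4, 19.4 and 21.9 CPM in SCR (−dox) and at 9.84, 9.74, 7.78 and 3.34 CPM in NAA40-KD (−dox). The groups did not overlap, and the lowest value was that of replicate 4, the library whose levels followed GC content. The log2 fold change was −1.27 (standard error 0.29, adjusted p = 0.0344) with that library and −1.04 (standard error 0.15, adjusted p = 6.53e-05) without it. *EZH2* (ENSG00000106462, chr7:148807383-148884321, − strand) was at 93.2, 89.6, 94.4 and 79 CPM in SCR (−dox) and at 53.8, 53.5, 49.5 and 29.7 CPM in NAA40-KD (−dox), with a log2 fold change of −0.91 (standard error 0.19, adjusted p = 0.0255), and of −0.76 (standard error 0.09, adjusted p = 2.04e-05) without replicate 4. Levels of both genes in replicates 1 to 3 alone lay below every SCR (−dox) library. Both calls were lost, however, when any of the other 7 libraries was left out and replicate 4 was kept, with log2 fold changes between −1.41 and −1.20 for *SUV39H2* (adjusted p 0.0572 to 0.114) and between −0.98 and −0.88 for *EZH2* (adjusted p 0.0528 to 0.0956).

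The promoters of *SUV39H2* (chr10:14878616-14878865, + strand) and *EZH2* (chr7:148884292-148884541, − strand, the more upstream start site of those listed) were read in the same way, since these genes were lower together. Here capitals also mark a cyclic AMP response word (TGACGTCA), and E2F words (TTTCCCGC, TTTGGCGC, TTTCGCGC and TTTGCCGC) were searched as well, on both strands.
SUV39H2: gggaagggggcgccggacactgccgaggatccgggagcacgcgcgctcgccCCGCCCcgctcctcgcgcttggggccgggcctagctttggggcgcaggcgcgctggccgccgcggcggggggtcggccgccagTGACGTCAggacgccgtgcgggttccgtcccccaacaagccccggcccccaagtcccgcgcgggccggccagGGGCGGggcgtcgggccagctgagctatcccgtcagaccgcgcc
EZH2: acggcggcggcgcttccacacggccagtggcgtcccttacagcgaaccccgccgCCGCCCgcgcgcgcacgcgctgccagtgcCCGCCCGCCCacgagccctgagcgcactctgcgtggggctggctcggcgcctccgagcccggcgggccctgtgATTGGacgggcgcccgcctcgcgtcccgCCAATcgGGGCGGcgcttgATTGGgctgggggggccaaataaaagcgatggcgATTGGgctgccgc
*SUV39H2* held 1 TGACGTCA and 2 GC boxes and *EZH2* held 4 CCAAT boxes and 4 GC boxes, of which 2 GC boxes overlap, while neither held an E2F word in these 250 bases. *EZH2* has TTTGGCGC starting at base 2 after its start site. An E2F word was found in 2.79% of all windows of 250 bases and in 5 of the 68 windows of members (*NSD2*, *KDM1B*, *JMJD1C*, *SUZ12* and *EZH1*), and TGACGTCA in 1.65% of all windows. No match says only that these letters are absent from the window.

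*EZH1*, the PRC2 subunit that prevails in cells that have left the cycle, did not share the fall of *EZH2*. It was at 37.8, 36.3, 39.6 and 28.5 CPM in SCR (−dox) and 44.1, 46.6, 37.1 and 42.0 CPM in NAA40-KD (−dox), a log2 fold change of 0.29 (standard error 0.16, adjusted p = 0.313). The ratio of *EZH2* to *EZH1* per kilobase was 1.09 to 2.06 in NAA40-KD (−dox), with 1.09 in replicate 4 and 1.78 to 2.06 in the other 3, and it was 3.68 to 4.29 in SCR (−dox). The PRC2 subunits *EED* and *SUZ12* were at −0.17 and −0.27, and at −0.03 and 0.00 without replicate 4.

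Leaving out NAA40-KD (−dox) replicate 4 brought 16 members past the test, 8 higher and 8 lower, where 17.1% of all genes were higher and 19.4% lower. Unless stated otherwise, changes in this paragraph are log2 fold changes of that fit to the other 7 libraries, in which *SUV39H1* joined *SUV39H2*. *SUV39H1* was at 12.5, 12.6, 11.1 and 15.9 CPM in SCR (−dox) and 8.51, 6.95, 8.59 and 13.0 CPM in NAA40-KD (−dox), so that replicate 4 alone lay within the SCR range, and it changed by −0.69 (standard error 0.15, adjusted p = 0.00217) without it. *KMT5A*, which places H4K20 monomethylation, was at 73.4, 82.1, 78.8 and 76.0 CPM and 57.2, 53.0, 66.9 and 47.5 CPM, all 4 NAA40-KD libraries being lower, and changed by −0.39 (standard error 0.09, adjusted p = 0.00388). *KMT5B*, which adds the further methyl groups at H4K20, moved the other way, at 67.9, 63.2, 66.7 and 69.3 CPM in SCR (−dox) and 83.1, 80.7, 84.1 and 45.9 CPM in NAA40-KD (−dox), and changed by 0.32 (standard error 0.08, adjusted p = 0.00546). With all 8 libraries these values were −0.45 for *SUV39H1*, −0.44 for *KMT5A* and 0.16 for *KMT5B*, of which none passed. The H3K36 enzyme *ASH1L* was lower, at −0.33, and the H3K4 enzyme *KMT2C* higher, at 0.64 (adjusted p = 0.00285). Of the other members, *SETDB1* (0.33), *SETDB2* (0.42), *KDM5A* (0.31), *KDM6B* (0.41), *PHF2* (0.29) and *PHF8* (0.28) were higher, and *KDM2B* (−0.39), *KDM4C* (−0.29) and *KDM7A* (−0.48) were lower. With all 8 libraries *SETDB1*, *SETDB2*, *KDM5A*, *KDM6B*, *PHF2* and *PHF8* were at 0.37, 0.25, 0.18, 0.70, 0.42 and 0.39, *KDM2B*, *KDM4C* and *KDM7A* at −0.15, −0.37 and −0.68, and *ASH1L* and *KMT2C* at −0.47 and 0.54, none past the test.

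**Figure D5:**
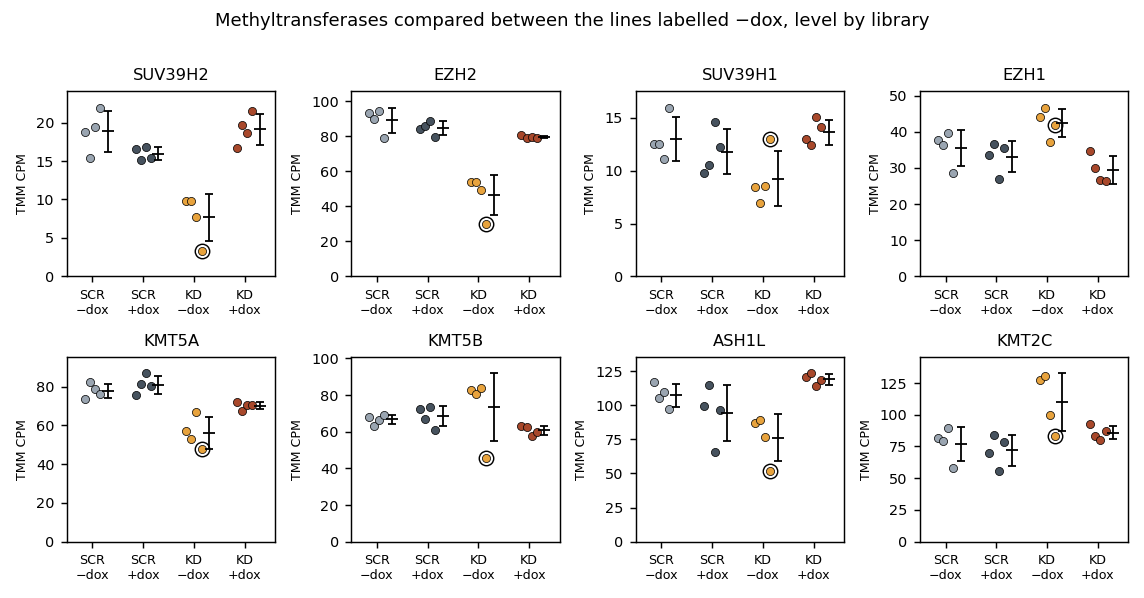
Level in TMM CPM of 8 methyltransferases in each library of the 4 groups (points, replicates 1 to 4 from left to right; bars, mean ± SD of 4; the ring marks NAA40-KD (−dox) replicate 4; axes start at 0). SUV39H2, EZH2 and KMT5A lie lower in all 4 NAA40-KD (−dox) libraries than in any library of the other groups, and in KMT5B replicate 4 lies below its group while the other 3 lie above all other libraries.

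With all 8 libraries the medians were 0.05 for the methyltransferases and 0.05 for the demethylases, beside 0.04 for all genes tested, so the classes were not set apart as they were between the lines labelled +dox. Groups did not overlap for 4 members that were higher and 7 that were lower, beside 9.13% and 12.6% of all genes. *KDM6B* and *DOT1L*, both rich in GC, had log2 fold changes of 0.70 and 0.55 with replicate 4 and 0.41 and 0.16 without it. A list of 14 S phase and mitosis markers summed to 1108 to 1356 CPM in NAA40-KD (−dox) and to 2223 to 2768 CPM in the other 12 libraries. Of the 14 markers 8 were lower, among them *MCM3* (−1.42), *CCNE2* (−1.59) and *MKI67* (−1.03), beside 3.54% of all genes tested. Without replicate 4 all 14 were lower, beside 19.4% of all genes. All 7 epithelial markers that passed the filter had positive log2 fold changes in the same comparison (median 0.68, 1 past the test, and 0.37 with 5 past it without replicate 4). The part of these differences in the levels of the members was not tested.

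Dox by itself was compared in the control line, SCR (+dox) against SCR (−dox). Of the 50 members 0 passed the test, as did 0.00% of all 13882 genes, and at an unadjusted p under 0.05 the count was 0 members beside 1.95% of all genes. DESeq2 and limma-voom gave 0 members as well. *KDM2A* and *PHF8* were lower in every SCR (+dox) library than in any SCR (−dox) library, 2 of 50 members beside 0.972% of all genes, and 0 members were higher without overlap, beside 0.591%. The members ranged from −0.24 (*KMT2D*) to 0.29 (*KDM8*) on the log2 scale, and 39 of 50 were below 0. The same number was low in SCR (+dox) replicate 3, and leaving that library out took the median of the methyltransferases from −0.08 to −0.02 and that of the demethylases from −0.07 to 0.01.

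Within the line carrying the *NAA40* hairpin, NAA40-KD (+dox) was compared with NAA40-KD (−dox), which share their libraries with both comparisons above and are no independent evidence of them. *SUV39H2*, *EZH2* and *ASH1L* were higher in the libraries labelled NAA40-KD (+dox), the group in which *NAA40* was also higher, and *EZH1*, *KDM4A* and *PHF8* were lower. These 3 higher and 3 lower members stand beside 4.71% and 5.50% of all 13844 genes tested. *SUV39H2* was at 16.7, 19.7, 18.6 and 21.5 CPM in NAA40-KD (+dox), above all 4 values of NAA40-KD (−dox) given above, with a log2 fold change of 1.30 (standard error 0.29, adjusted p = 0.0243). *EZH2* was at 80.4, 78.9, 79.7 and 78.8 CPM, a log2 fold change of 0.75 (standard error 0.18, adjusted p = 0.0332), and its paralogue *EZH1* was at 34.7, 30, 26.6 and 26.4 CPM, a log2 fold change of −0.55 (standard error 0.14, adjusted p = 0.0423) in the opposite direction. *ASH1L* was at 86.9, 89.5, 76.9 and 51.4 CPM in NAA40-KD (−dox) and 120.4, 123, 114 and 118 CPM in NAA40-KD (+dox), a log2 fold change of 0.63 (standard error 0.17, adjusted p = 0.0493). *KDM4A* changed by −0.68 (standard error 0.11, adjusted p = 0.00752). *PHF8*, a demethylase of H3K9 and H4K20, was at 74.3, 78.6, 67.8 and 92.1 CPM and 52.9, 57.1, 57.4 and 54.8 CPM, a log2 fold change of −0.52 (standard error 0.14, adjusted p = 0.0463). Of the 14 S phase and mitosis markers 10 were higher and 0 lower in the same comparison (median log2 fold change 0.96), and their part in these results was not tested.

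Only the call of *KDM4A* held when each of the 8 libraries was left out in turn (adjusted p up to 0.0464). *SUV39H2* lost its call without 5 of them (adjusted p 0.0608 to 0.0826), namely each of the NAA40-KD (+dox) replicates and NAA40-KD (−dox) replicate 3, and *EZH2* and *ASH1L* each without the 7 libraries other than NAA40-KD (−dox) replicate 4 (0.0527 to 0.105 and 0.0632 to 0.136). *EZH1* (0.0694 to 0.155) and *PHF8* (0.0817 to 0.15) lost it without 6, namely each NAA40-KD (+dox) replicate and NAA40-KD (−dox) replicates 1 and 2. Without NAA40-KD (−dox) replicate 4 the test passed 14 members that were higher and 18 that were lower, beside 25.8% and 26.6% of all genes. In that fit *SUV39H2* was at 1.06, *EZH2* at 0.59, *ASH1L* at 0.49, *EZH1* at −0.55 and *PHF8* at −0.41, and 11 of the 14 higher members were methyltransferases and 10 of the 18 lower ones demethylases, among them *JMJD1C* (−0.58), *KDM6B* (−0.54), *KDM5C* (−0.43), *KDM5B* (−0.41) and *KDM4B* (−0.38). With all 8 libraries the same 5 genes were at −0.34, −0.81, −0.68, −0.30 and −0.76 and did not pass. *SUV39H1* was at 13.0, 12.4, 15.1 and 14.1 CPM in NAA40-KD (+dox) and rose by 0.76 (adjusted p = 1.28e-05) without replicate 4 and was at 0.54 with it. *KMT5A* was at 71.9, 67.6, 70.3 and 70.6 CPM and rose by 0.24 without replicate 4 (0.30 with it), while *KMT5B* was at 63.1, 62.7, 57.9 and 59.8 CPM and fell, with a log2 fold change of −0.45 (−0.29 with it).

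The interaction of line and label tested whether the difference between the dox labels was itself different in the 2 lines, in a fit to all 16 libraries. It passed for *SUV39H2* at 1.53 (standard error 0.31, adjusted p = 0.00597), *EZH2* at 0.82 (standard error 0.20, adjusted p = 0.0184), *ASH1L* at 0.80 (standard error 0.24, adjusted p = 0.0429) and *KDM4A* at −0.73 (standard error 0.17, adjusted p = 0.0119), beside 9.22% of all 14392 genes tested. The positive values mean that NAA40-KD (+dox) stood further above NAA40-KD (−dox) than SCR (+dox) stood above SCR (−dox), where *SUV39H2*, *EZH2* and *ASH1L* were at −0.23, −0.07 and −0.18. *SUV39H2*, *EZH2* and *KDM4A* kept this call without any of the 16 libraries, whereas *ASH1L* lost it without 12 (all but SCR (+dox) replicate 2 and NAA40-KD (−dox) replicates 1, 2 and 4, adjusted p 0.0556 to 0.0915). Without NAA40-KD (−dox) replicate 4 the interaction passed for 13 members, beside 24.2% of all genes, the added ones being *SUV39H1* (0.89), *KDM2B* (0.55), *NSD2* (0.47), *KDM1B* (0.47) and *SMYD2* (0.41) with positive values and *JMJD1C* (−0.60), *KMT5B* (−0.50), *KDM5B* (−0.48) and *KDM4B* (−0.48) with negative ones. With all 16 libraries these 9 were at 0.67, 0.34, 0.44, 0.65, 0.48, −0.36, −0.34, −0.37 and −0.85, and without replicate 4 *SUV39H2* was at 1.29, *EZH2* at 0.65, *ASH1L* at 0.66 and *KDM4A* at −0.74.

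Partners of these enzymes were counted in lists written with earlier results known. Of all genes tested 10.9% were higher and 13.7% lower between the lines labelled +dox. Between the lines labelled −dox 2.88% were higher and 3.54% lower. Between the lines labelled +dox, 2 of the 12 subunits of the H3K4 methyltransferase complexes were higher and 0 lower (median 0.11), *WDR5* at 0.49 (adjusted p = 0.000624) and *CXXC1* at 0.31 (adjusted p = 0.0217). Of 9 PRC2 accessory genes 0 were higher and 2 lower (median −0.17), *JARID2* at −0.46 (adjusted p = 0.00241) and *RBBP7* at −0.23 (adjusted p = 0.0409). Of 7 LSD1 complex genes *PHF21A*, a reader of unmethylated H3K4, was lower, at −0.54 (adjusted p = 0.00186), and of 8 H3K9 partners and readers 0 passed. Of 16 further lysine methyltransferases and demethylases 2 were higher, *SMYD4* (0.43) and *SETD3* (0.35), and 2 were lower, *RIOX1* (−1.34) and *HR* (−0.34). Between the lines labelled −dox 0 COMPASS, PRC2 accessory, H3K9 partner or LSD1 complex genes passed, and 1 of the 16 further enzymes did, *PRDM10*, higher at 0.73 (adjusted p = 0.0266). Without NAA40-KD (−dox) replicate 4 1 PRC2 accessory gene was higher and 5 were lower (*EPOP* at −0.85 and *PHF19* at −0.56 among the latter), as were 0 and 2 COMPASS genes, 1 and 3 H3K9 partners, 0 and 1 LSD1 complex genes and 3 and 6 of the further enzymes, beside 17.1% and 19.4% of all genes.

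Enzymes that supply and recycle the methyl donor were counted too, beside the same shares of all genes as the partners. Between the lines labelled −dox *MAT1A*, a synthase of S-adenosylmethionine, was higher, at 2.11 (adjusted p = 0.00238), and *MTR*, which remakes methionine from homocysteine, was lower, at −0.78 (adjusted p = 0.0206), while the other 6 of 8 did not pass (2 of 8 higher and 2 lower without replicate 4). Between the lines labelled +dox *MTR* was higher, at 0.57 (adjusted p = 0.000921), as was its reactivating enzyme *MTRR* at 0.36 (adjusted p = 0.0114), and 0 of the 8 were lower.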

How the data were processed

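The study measured RNA of 16 HCT116 libraries. As the labels and methods give it, reads were aligned with STAR, assigned to genes with featureCounts and tested with limma after TMM scaling in edgeR. Whether reads were assigned by strand is not stated in the sources used here. The labels name the builds hg38 and GRCm38 while the methods name mm10. All 33937 identifiers of the table are human Ensembl genes, and 33811 of them took a symbol, exon length and GC content from GENCODE 29. The authors deposited raw counts per gene and library, which were used as deposited.

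Groups, replicates and dox came from the labels. Counts were scaled by TMM, genes with a CPM above 1 in at least 4 libraries of a fit were kept, and edgeR 4.0.16 (R 4.3.3) gave quasi-likelihood tests with Benjamini-Hochberg adjustment, fitted to the 8 libraries compared, or to 16 for the interaction. The script was tested on simulated data. Limma-voom 3.58.1 (the study names limma), DESeq2 1.42.0, other scalings, filters, thresholds, a replicate block, GC and length offsets (lowess, span 0.3) and leaving out each library were the alternatives. *NAA40* was compared by exact permutation over samples.

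Members and lists were chosen with earlier results of these data known. Members past the test in any comparison are named with values, others by class. Promoters are from RefSeq (GRCh38.p14), which matched 47 of the 50 members. Counting error of a CPM value depends on the gene's own count, at library totals of 11065606 to 13855486. No gene-level call is made below the filter.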

Additional observations from a re-analysis of the deposited data

Results flagged for a closer look

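Among 100 sets of 4 libraries examined (*NAA40* and the members described by their levels, in each group), 10 held an outlying library. Its gap to its nearest neighbour, divided by the range of the 4, exceeded Dixon's 95% critical value. Chance gives about 1 in 20 in independent sets. These sets share the same 16 libraries, so no excess is read from the 10. Of the 10, 9 were NAA40-KD (−dox) replicate 4. In that library *DOT1L* was at 233.1 CPM, *EHMT1* at 154.4 CPM, *EHMT2* at 175.3 CPM, *KDM4B* at 119.1 CPM, *KDM5C* at 278.7 CPM, *KDM6B* at 245.1 CPM and *KMT5C* at 50.2 CPM, each above the other 3 libraries of the group, and *KDM1B* at 26.7 CPM and *KMT5B* at 45.9 CPM, each below them. The remaining one was *KDM2A* in SCR (−dox) replicate 2, at 129.7 CPM beside 123.7 to 124.0 CPM in the other 3.

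The change between the dox labels differed between the lines, by the interaction in edgeR, for *SUV39H2* (1.53, adjusted p = 0.00597), *EZH2* (0.82, adjusted p = 0.0184), *ASH1L* (0.80, adjusted p = 0.0429) and *KDM4A* (−0.73, adjusted p = 0.0119), all on the log2 scale.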

How the results depend on the processing

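The number of members past the test between the lines labelled +dox, 10, was 5 at an adjusted p under 0.01 and 16 under 0.1, 3 in a fit to all 16 libraries and 16 with a GC offset, and 7 to 12 with a library left out. Between the lines labelled −dox the 2 became 0 under 0.01, 4 in DESeq2, 11 with all 16 libraries and 22 with a GC offset, and 0 to 16 with a library left out, 16 being the value without NAA40-KD (−dox) replicate 4. Between the NAA40-KD labels the 6 became 1 under 0.01, 10 under 0.1, 12 in DESeq2, 2 with no filter, 15 with all 16 libraries and 28 with a GC offset, and 1 to 32 with a library left out. For the interaction the 4 became 1 under 0.01, 8 under 0.1, 8 in DESeq2 and 16 with a GC offset, and 3 to 13 with a library left out. Dox in SCR gave 0 throughout. The share of all genes called was 24.5% in the main +dox fit. With all libraries and without NAA40-KD (−dox) replicate 4 it was 6.42% and 36.5% (−dox), 10.2% and 52.4% (NAA40-KD labels) and 9.22% and 24.2% (interaction). Counts under the other settings, here and below, have no such share beside them and are no result about the members alone.

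Whether same-numbered libraries were prepared together is not stated in the labels. Their deviations from the group means correlated at −0.40 to 0.23, and no comparison had every pair above 0.1. These deviations also followed GC content in several libraries, so the correlations cannot decide it. With the replicate block the counts were 14 (+dox), 0 (−dox), 1 (NAA40-KD labels) and 4 (interaction).

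The median log2 fold change of the methyltransferases ran from 0.071 to 0.21 (+dox) and from −0.034 to 0.16 (interaction, main value 0.10) with a library left out, and was 0.23 in the interaction with a GC offset. That of the demethylases ran from −0.24 to −0.092 (+dox), −0.0028 to 0.083 (−dox), −0.30 to −0.21 (NAA40-KD labels) and −0.33 to −0.16 (interaction), and for −dox it was −0.021 in limma-voom and −0.010 with the block. Between the NAA40-KD labels *SETD1B*, at −0.02, turned to 0.051 in limma-voom, 0.024 by library size, 0.028 with no filter, 0.049 with the block, 0.27 with a GC offset and −0.12 to 0.29 with a library left out (0.0012 without NAA40-KD (+dox) replicate 1, 0.0095 without replicate 3, 0.29 without NAA40-KD (−dox) replicate 4). *KMT2B*, at −0.16, turned to 0.16 with a GC offset and 0.24 without NAA40-KD (−dox) replicate 4, its lowest such value being −0.29, and *KDM6A*, at −0.08, to 0.027 without NAA40-KD (−dox) replicate 2, its lowest being −0.23. *NAA40* in the libraries labelled NAA40-KD (+dox) was at 111.9% of SCR (+dox) by library size (exact permutation p = 0.0571). With a library left out it ran from 109.6% to 113.4%, and in those labelled NAA40-KD (−dox) from 37.5% to 42.1% of SCR (−dox), where 4 against 3 cannot go below p = 0.0571 in the exact permutation test. The cause of these shifts was not tested.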
